A study of Arabidopsis thaliana with 6 samples.

Results

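The 6 YABBY genes of Arabidopsis thaliana were examined for binding of SWINGER (SWN) with and without the repressors VAL1 and VAL2. They are FIL (also YAB1, AT2G45190), YAB2 (AT1G08465), YAB3 (AT4G00180), YAB5 (AT2G26580), CRABS CLAW (CRC, AT1G69180) and INNER NO OUTER (INO, AT1G23420), chosen by family membership out of 27444 nuclear protein-coding genes. All 6 were found in the gene table used, where FIL is listed under its other symbol AFO. Peaks were assigned to a member when they overlapped its gene span or the 1000 bp on either side, together called its window.

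YABBY proteins are plant transcription factors with a zinc finger and a YABBY domain that act on the lower (abaxial) side of leaves and floral organs and in the growth of the leaf blade. FIL, YAB2, YAB3 and YAB5 are the members active in leaves, whereas CRC acts in carpels and nectaries and INO in the outer integument of the ovule. SWN is one of the histone methyltransferases at the core of Polycomb repressive complex 2, which methylates histone H3 at silent developmental genes. VAL1 and VAL2 are related B3-domain proteins that bind DNA and recruit repressors.

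Chromatin immunoprecipitation with a GFP antibody was followed by sequencing in seedlings aged 14 days. The double mutants carried the transgene pSWN:SWN-GFP, which drives the fusion protein from the SWN promoter, in a swn val1 val2 background (SWN-GFP val1 val2, shortened to val1 val2 below, 2 libraries). The comparison plants carried the same transgene in a swn background with VAL1 and VAL2 intact (SWN-GFP, 2 libraries), so that both genotypes share the transgene and the swn mutation and differ in the val mutations. An input of each genotype (2 samples) was not analysed here. Whole seedlings mix cell types, so fewer cells with SWN at a gene and less SWN per cell cannot be told apart.

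The 4 deposited peak lists held 9177 and 9618 peaks in val1 val2 and 8189 and 8666 in SWN-GFP, covering 5.94 and 6.35 Mb in val1 val2 and 5.53 and 5.89 Mb in SWN-GFP. Read totals are not in the lists, so sequencing depth is unknown and no counting interval is given. The lowest local background of a list, worked out from the deposited pileup and fold, was 8.79 and 10.1 fragments in val1 val2 and 7.53 and 8.60 fragments in SWN-GFP. The longer lists were thus also those with the higher background, and the part of this in the results was not tested. Effects of genotype and of any batch particular to 1 genotype cannot be told apart.

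All 6 YABBY genes carried SWN-GFP peaks in all 4 lists. No member was lost (peaks in both SWN-GFP lists and in neither val1 val2 list) and none was gained (the reverse). Among all nuclear protein-coding genes, 18.1% had a peak in all 4 lists by the same rule, 4.05% were lost and 4.89% were gained. Together, the 6 windows span 29115 bp. Peaks covered 19879 and 20314 bp of them in the val1 val2 libraries and 16715 and 17255 bp in the SWN-GFP libraries. Both libraries of the double mutant lay above both SWN-GFP libraries, with means of 20096.5 ± 308 bp in val1 val2 and 16985 ± 382 bp in SWN-GFP (SD, n = 2 each), a difference of 3111.5 bp. It was 1745 bp after scaling each list to equal total covered length and 1375.5 bp with the gene spans alone. The exact two-sided permutation test gave p = 0.33, the smallest value that 2 libraries against 2 allow, so neither this sum nor any single gene could pass 0.05.

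The extra length was unequally shared among the members. INO, YAB3 and YAB5 were covered over more bp in both val1 val2 libraries than in either SWN-GFP library, as were 36.2% of all genes with peaks in all 4 lists. No member was covered over fewer bp in both, where 28.7% of those genes were. At FIL, YAB2 and CRC the libraries of the genotypes overlapped. Base by base, 13829 bp of the 6 windows (47.5%) lay under a peak in all 4 lists. Peaks of both val1 val2 lists alone covered 1698 bp (5.83%), of which 627 bp were at INO, 481 bp at YAB2 and 311 bp at YAB3. Peaks of both SWN-GFP lists alone covered 198 bp, of which 195 bp were at YAB2. These base-by-base shares were not worked out over all genes, and the val1 val2 lists covered more of the genome in total.

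**Figure D1:**
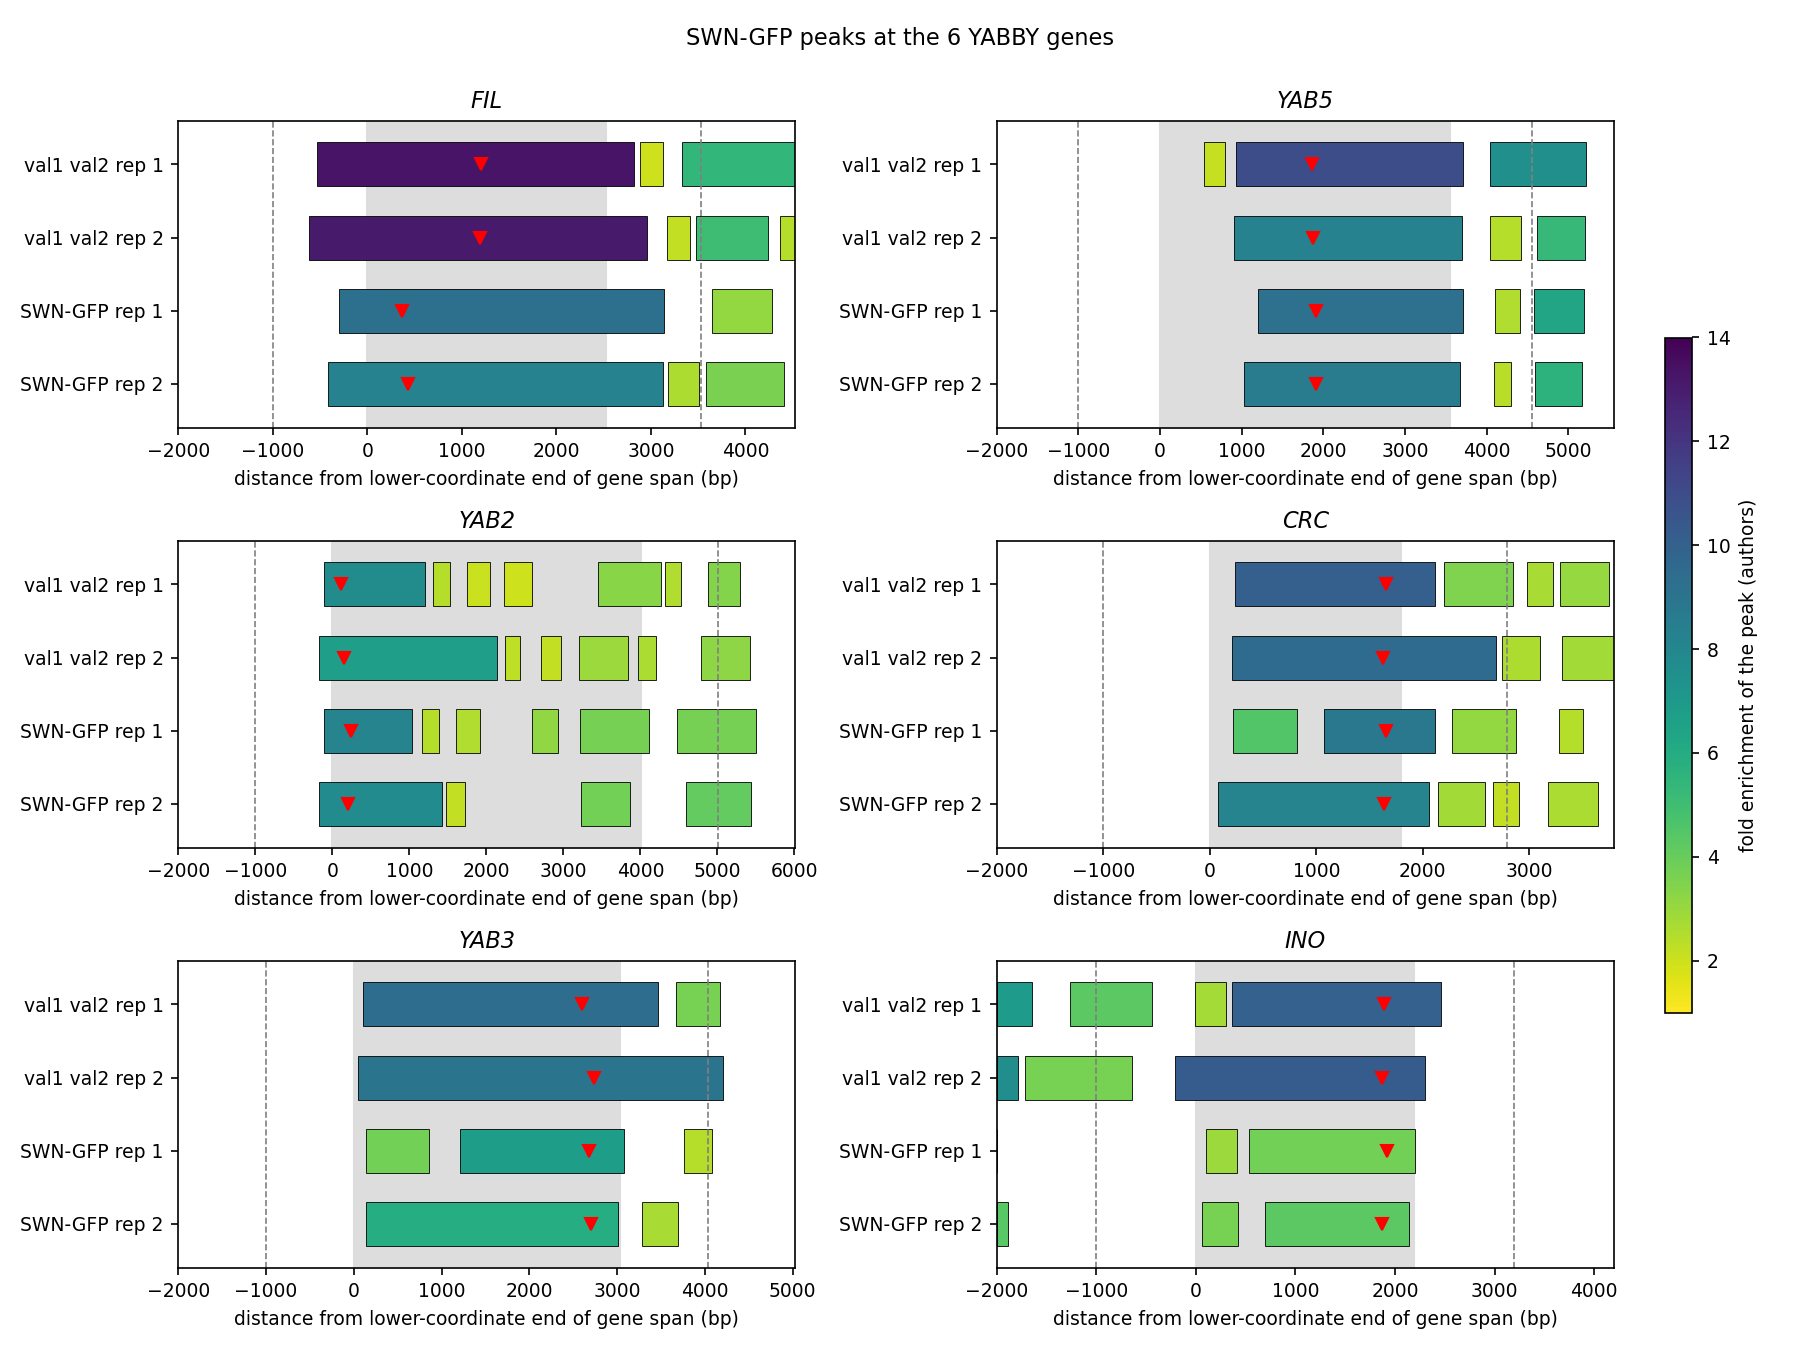
Peaks of the 4 lists at each YABBY gene, by distance in bp from the lower-coordinate end of the gene span (grey; dashed lines bound the window of 1000 bp on either side). Bars are peaks, coloured by the authors' fold enrichment, and red triangles are the summits of the strongest peak in the window; at FIL the summit lies 1200 and 1188 bp into the span in val1 val2 and 366 and 432 bp into it in SWN-GFP.

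**Figure D2:**
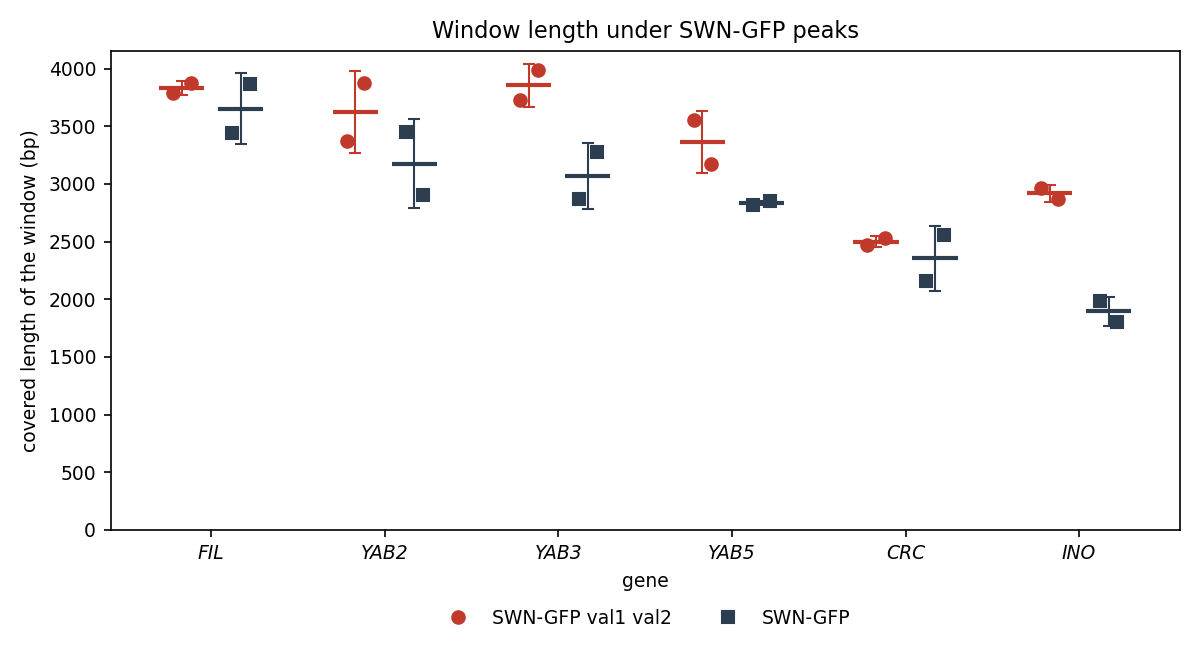
Length of each YABBY window under peaks, in bp, per library (points), with the mean (bar) and SD (whiskers, n = 2). The points of the genotypes separate at YAB3, YAB5 and INO, where val1 val2 is higher, and overlap at FIL, YAB2 and CRC.

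FIL, which together with its closest relative YAB3 promotes abaxial cell fate and blade growth, was under a single broad peak over its whole span of 2528 bp in every library. That peak lay on chromosome 2 (TAIR10) at 18627723 to 18631069 and 18627634 to 18631211 in val1 val2, and at 18627951 to 18631388 and 18627838 to 18631379 in SWN-GFP. The covered length of the window was 3792 and 3876 bp in val1 val2 and 3438 and 3870 bp in SWN-GFP, which overlapped (difference 180 bp, exact permutation p = 0.67). The direction of this difference was opposite after scaling each list to equal total covered length (-91.7 bp), with the strongest 8000 peaks of each list (-66 bp) and without SWN-GFP replicate 1 (-36 bp).

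The point of highest signal lay elsewhere in FIL in the double mutant. The authors' summit was at 18629452 and 18629440 in val1 val2, and at 18628618 and 18628684 in SWN-GFP. Replicates lay 12 bp apart in val1 val2 and 66 bp apart in SWN-GFP, and the genotype means 795 bp apart. At the other 5 members the genotype means lay between 6 and 88.5 bp apart. Of the 2372 genes with peaks in all 4 lists and replicate summits within 150 bp, 8.18% had genotype means over 500 bp apart. These limits were set after the values at FIL had been seen. The summit counted was that of the strongest peak in the window, which can be a different peak in each genotype. At FIL it lay under the same broad peak in every list. The fold enrichment of the FIL peak, which is the authors' ratio of the summit pileup to local background, was 13.3 and 13.1 in val1 val2 and 9.26 and 8.29 in SWN-GFP. Within its own list this peak ranked 76 and 72 from the top in val1 val2, and 308 and 415 in SWN-GFP. The pileup at these summits was 148 and 177 fragments in val1 val2 and 135 and 153 fragments in SWN-GFP, which overlapped. The local background at the summits was 10.2 and 12.6 fragments in val1 val2 and 13.7 and 17.6 fragments in SWN-GFP. The higher fold and rank at FIL thus went with a lower local background at another summit. Whether FIL had more signal in either genotype was not tested, as the summits differ and sequencing depth is unknown.

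Beyond the higher-coordinate end of FIL a second group of peaks followed, partly outside the window. In val1 val2 these included peaks at 18631578 to 18633059 (fold 5.42) and 18631731 to 18632486 (fold 5.05), which enter the window. In SWN-GFP the corresponding peaks began 123 and 55 bp outside it, at 18631902 to 18632536 (fold 3.08) and 18631834 to 18632658 (fold 3.59). They were therefore not counted for FIL, although they lie at nearly the same place. With 2000 bp on either side of the span, the difference at FIL was 386.5 bp.

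YAB3, the sister gene of FIL, was covered over more of its window in both libraries of the double mutant. Peaks covered 3724 and 3987 bp in val1 val2 and 2865 and 3274 bp in SWN-GFP, with means of 3855.5 ± 186 bp in val1 val2 and 3069.5 ± 289 bp in SWN-GFP (SD, n = 2 each; difference 786 bp, exact permutation p = 0.33). Most of the difference lay beyond the higher-coordinate end of the gene, where 898 ± 144 bp of 1000 bp were covered in val1 val2 and 361 ± 63.6 bp in SWN-GFP. Within the span of 3032 bp, 97.5% was covered on average in val1 val2 and 89.3% in SWN-GFP. No library had a peak in the flank at the lower-coordinate side.

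The shape of the YAB3 peak also varied between libraries, including between the SWN-GFP replicates. In val1 val2 replicate 2 a single peak ran from 72590 to 76755 on chromosome 4, and in replicate 1 the main peak ran from 72649 to 76010. In SWN-GFP replicate 1 the gene was under separate peaks at 72682 to 73408 and 73755 to 75619, and in replicate 2 under a peak at 72690 to 75557. A smaller peak followed at 76215 to 76720 in val1 val2 replicate 1. In SWN-GFP replicates 1 and 2 such peaks lay at 76304 to 76627 and at 75834 to 76239. The summit of the strongest peak lay at a similar place, at 75143 and 75280 in val1 val2 and at 75220 and 75252 in SWN-GFP. Its fold was 9.40 and 8.98 in val1 val2 and 6.80 and 5.93 in SWN-GFP. This placed the strongest peak at percentiles 97.4 and 97.3 of fold in the val1 val2 lists and at 91.2 and 88.8 in the SWN-GFP lists. Peaks of 3 lists also overlapped AT4G03525, a long non-coding RNA gene next to YAB3, so this stretch of signal cannot be assigned to either gene alone.

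YAB2, another leaf-expressed member, had the most broken pattern, with 7 and 6 peaks in its window in val1 val2 and 6 and 4 in SWN-GFP. The strongest lay at the lower-coordinate end of the gene in every list, at 2675703 to 2677012 and 2675645 to 2677955 on chromosome 1 in val1 val2, and at 2675702 to 2676849 and 2675642 to 2677240 in SWN-GFP. YAB2 was the only member whose strongest peak had a lower fold in both val1 val2 libraries, 7.70 and 6.76, than in both SWN-GFP libraries, 8.14 and 7.79. Its percentiles within the lists overlapped, at 95.5 and 94.1 in val1 val2 and 94.5 and 94.4 in SWN-GFP.

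The covered length at YAB2 was 3370 and 3878 bp in val1 val2 and 3449 and 2901 bp in SWN-GFP. SWN-GFP replicate 1 thus lay above val1 val2 replicate 1, and replicates of either genotype lay farther apart than the genotype means (difference 449 bp, exact permutation p = 0.67). It was 195 and 703 bp without val1 val2 replicate 2 and 1, 175 and 723 bp without SWN-GFP replicate 2 and 1, and 181 bp after scaling to equal total covered length. The middle of the gene held short, weak peaks with a fold of 1.99 to 3.14, which the libraries placed differently. They were 200 to 361 bp long and covered only part of it in each list. The second strongest group of peaks, at the higher-coordinate end and beyond, had folds up to 3.41 and 3.21 in val1 val2 and up to 3.73 and 4.12 in SWN-GFP.

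YAB5, also a leaf member, was bound over the part of its span at the higher-coordinate side in all libraries. The main peak ran from 11304389 to 11307167 and from 11304359 to 11307154 on chromosome 2 in val1 val2, and from 11304656 to 11307166 and from 11304479 to 11307125 in SWN-GFP. The 4 peaks ended close together at the higher-coordinate side, while at the other side both began earlier in val1 val2. Their summits lay between 11305319 and 11305367 in all lists. The fold was 11.0 and 8.27 in val1 val2 and 9.21 and 8.60 in SWN-GFP, which overlapped.

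Peaks covered 3557 and 3174 bp of the YAB5 window in val1 val2 and 2821 and 2848 bp in SWN-GFP. The means were 3365.5 ± 271 bp in val1 val2 and 2834.5 ± 19.1 bp in SWN-GFP (SD, n = 2 each; difference 531 bp, exact permutation p = 0.33). After scaling each list to equal total covered length the difference was 309 bp and the genotypes overlapped. Without val1 val2 replicate 1 it was 339.5 bp. A strong second peak sat at the edge of the window. It began 28 and 34 bp outside in the SWN-GFP lists, with folds of 6.36 and 5.66, and 58 bp outside in val1 val2 replicate 2, with a fold of 5.28. In val1 val2 replicate 1 it was joined to a neighbouring peak, at 11307499 to 11308668 with a fold of 7.52, and was counted.

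CRC, which directs carpel and nectary development, kept the position of its peak in both genotypes. The summit lay at 26009002 and 26008976 on chromosome 1 in val1 val2, and at 26009008 and 26008982 in SWN-GFP, near the higher-coordinate end of its span. The strongest peak ran from 26007590 to 26009461 and from 26007558 to 26010041 in val1 val2, and from 26008419 to 26009464 and from 26007432 to 26009409 in SWN-GFP. In SWN-GFP replicate 1 the body of the gene had a separate peak at 26007571 to 26008166 (fold 4.53). The fold of the strongest peak was 10.1 and 9.50 in val1 val2 and 8.80 and 8.15 in SWN-GFP.

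The covered length at CRC was 2467 and 2532 bp in val1 val2 and 2157 and 2556 bp in SWN-GFP. The highest value was thus in a SWN-GFP library, and the difference of 143 bp was within the spread of the SWN-GFP replicates (exact permutation p = 1). It was -56.5 bp without SWN-GFP replicate 1 and -31.4 bp after scaling to equal total covered length.

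INO, the ovule gene of the family, had the largest difference of the 6 in both fold and covered length. The strongest peak at INO had a fold of 10.0 and 10.3 in val1 val2 and 3.75 and 4.27 in SWN-GFP. It stood 192 and 176 from the top of the val1 val2 lists, and 2736 and 2015 from the top of the SWN-GFP lists. The pileup at its summit was 97 and 113 fragments in val1 val2 and 31 and 40 fragments in SWN-GFP. INO was the weakest member in both SWN-GFP lists, whereas in the val1 val2 lists only FIL had a higher fold in replicate 2, and FIL, YAB5 and CRC did in replicate 1.

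The INO summit did not move with this difference, lying at 8319182 and 8319162 on chromosome 1 in val1 val2 and at 8319219 and 8319165 in SWN-GFP. The peak ran from 8317658 to 8319760 and from 8317090 to 8319597 in val1 val2, and from 8317828 to 8319499 and from 8317996 to 8319436 in SWN-GFP. Among genes with peaks in all 4 lists, 0.684% (34 of 4971) had a strongest peak above percentile 95 in both val1 val2 lists and below percentile 80 in both SWN-GFP lists, and INO was the YABBY gene among them. These limits were set after INO had been seen and describe how frequent such a pattern is.

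Peaks covered 2969 and 2867 bp of the INO window in val1 val2 and 1985 and 1806 bp in SWN-GFP. The means were 2918 ± 72.1 bp in val1 val2 and 1895.5 ± 127 bp in SWN-GFP (SD, n = 2 each), a ratio of 1.54 and a difference of 1022.5 bp that exceeded the distance between replicates (exact permutation p = 0.33). Within the span of 2195 bp, 98.7% was covered on average in val1 val2 and 86.2% in SWN-GFP. The flank at the lower-coordinate side accounted for 563 ± 4.24 bp in val1 val2, while both SWN-GFP lists had no peak there.

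That flank carried a separate peak, at 8316034 to 8316852 (fold 4.29) and 8315579 to 8316655 (fold 3.69) in the val1 val2 lists. In replicate 2 part of the covered flank was under the main INO peak instead, which began at 8317090. The separate peak of that replicate also overlapped the neighbouring genes CAF2 and AT1G23410. Those neighbours had a peak of their own in all 4 lists, outside the INO window, with folds of 6.89 and 7.63 in val1 val2 and 5.15 and 4.36 in SWN-GFP. The flank peak was therefore shared with these genes in 1 library. In val1 val2 replicate 1 the strongest INO peak also overlapped another gene, AT1G05817, by 98 bp. With the gene span alone the difference at INO was 276 bp. When each list was cut to its 2000 strongest peaks, INO had a peak in both val1 val2 lists and in neither SWN-GFP list. In SWN-GFP replicate 2 its strongest peak, ranked 2015, missed this cut narrowly. With peaks of a fold of at least 4 INO had none in SWN-GFP replicate 1.

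**Figure D3:**
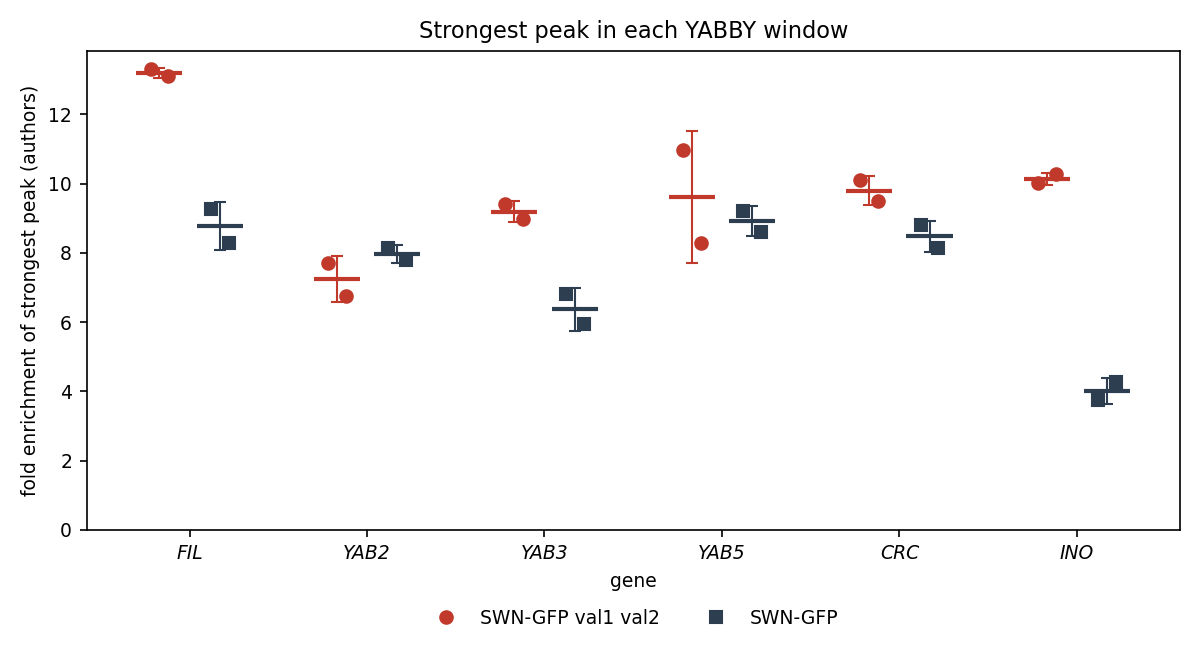
Authors' fold enrichment of the strongest peak in each YABBY window, per library (points), with the mean (bar) and SD (whiskers, n = 2). INO reads 10.0 and 10.3 in val1 val2 and 3.75 and 4.27 in SWN-GFP; YAB2 is the gene with both val1 val2 values lower. Folds were calculated within each list and were not tested between lists.

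Set side by side, the strongest peaks of 5 members lay at percentile 88.8 of fold or above in every list, while INO stood at 66.5 and 76.7 in the SWN-GFP lists. FIL, YAB2, YAB5 and CRC had a peak above percentile 90 of fold in all 4 lists, as did 2.34% of all nuclear protein-coding genes and 12.9% of those with peaks in all 4 lists. So did 6 of the 19 leaf polarity and blade genes and 4 of the 8 carpel and ovule genes described below. The median percentile of the 6 strongest peaks was 97.9 and 97.5 in the val1 val2 lists and 95.1 and 94.7 in the SWN-GFP lists. Over all genes with peaks in all 4 lists it was 77.1 and 78.2 in the val1 val2 lists and 74.1 and 75.3 in the SWN-GFP lists. For the 11 such leaf polarity and blade genes it was 95.7 and 95.3 in val1 val2, and 90.3 and 94.8 in SWN-GFP. For the 6 such carpel and ovule genes it was 95.6 and 96.2 in val1 val2, and 94.7 and 96.0 in SWN-GFP. Of the members, 5 had a higher percentile in both val1 val2 libraries than in either SWN-GFP library (FIL, YAB3, YAB5, CRC and INO), where 39.2% of genes with peaks in all 4 lists did. None had a lower percentile in both, where 28.9% of those genes did. Of the 11 such leaf polarity and blade genes, 7 had a higher percentile in both val1 val2 libraries and 1 a lower one. Of the 6 such carpel and ovule genes, 3 had a higher percentile in both and 1 a lower one. Percentiles come from lists of unequal length and are given as a description.

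Peaks covered broad stretches of the YABBY windows. The median share of the window under peaks was 67.7% in val1 val2 and 56.9% in SWN-GFP over the 6 members, and 22.1% in val1 val2 and 21.6% in SWN-GFP over all genes with peaks in all 4 lists. For the 11 such leaf polarity and blade genes described below it was 67.2% in val1 val2 and 52.3% in SWN-GFP. For the 6 such carpel and ovule genes it was 71.8% in val1 val2 and 66.1% in SWN-GFP. Broad cover was thus not particular to the YABBY genes. The longer a window is, the smaller the share that a single peak can cover, and genes were not matched for length. By covered length in the 4 libraries, the named genes most like INO were MYB24 and NAC028, with summed absolute differences of 393 and 444 bp over the 4 libraries. Those most like FIL were APL and MGP (344 and 379 bp), those most like YAB3 were TCP5 and IDD14 (751 and 760 bp), and those most like YAB5 were BHLH32 and WRKY59 (504 and 624 bp). For YAB2 they were GulLO2 and NAC075 (793 and 844 bp), and for CRC they were ZFP10 and ACS8 (366 and 417 bp).

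Genes that act with YABBY genes in leaf polarity and blade growth were bound to differing degrees. Of 19 such genes, 11 had peaks in all 4 lists, 1 was lost, 1 was gained, 2 had peaks in some lists and 4 had none. The KANADI genes KAN1, KAN2, KAN3 and KAN4, which like YABBY genes promote abaxial fate, were all bound in every list but did not differ between genotypes in one direction. KAN1 was covered over 5291 and 5252 bp in val1 val2 and 4473 and 4270 bp in SWN-GFP. KAN3 was covered over 1580 and 1781 bp in val1 val2 and 1939 and 2261 bp in SWN-GFP. NUB, a zinc-finger gene of organ growth related to JAGGED, had 2886 and 2913 bp in val1 val2 and 1697 and 2039 bp in SWN-GFP.

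Of the class III homeodomain-leucine zipper genes, PHB, PHV and REV promote the opposite, upper (adaxial) fate. The genes of this class were not bound in every list, with ATHB8 the exception. PHB was lost, with folds of 2.69 and 2.82 in the SWN-GFP lists. PHV was gained, with folds of 2.86 and 3.85 in the val1 val2 lists. CNA was covered over 355 and 0 bp in val1 val2 and 982 and 954 bp in SWN-GFP, where its strongest peak had a fold of 3.62 and 6.07. REV had no peak in any list, and ATHB8 had peaks in all 4 with folds of 6.70 and 5.91 in val1 val2 and 6.28 and 5.58 in SWN-GFP. Over the 11 genes with peaks in all lists, 7 were covered over more bp in both val1 val2 libraries and 2 over fewer, read against the 36.2% and 28.7% given above.

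The genes whose proteins form the co-repressor complex with YABBY proteins were compared by the same rule. LUG, LUH, SLK1, SLK2 and SLK3 had no peak in any list, as was the case for 58.4% of all nuclear protein-coding genes. SEU was the 1 of 6 with peaks in all 4 lists, covered over 360 and 441 bp in val1 val2 and 358 and 348 bp in SWN-GFP. Where no peak was listed, binding too weak for the caller at this unknown depth remains possible.

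Of 8 genes that act with CRC or INO in carpels, ovules and fruits, 6 had peaks in all 4 lists, 1 was lost and 1 had none. BEL1, a homeodomain gene needed for integument identity in the ovule, was covered over 3510 and 3602 bp in val1 val2 and 1941 and 1735 bp in SWN-GFP. This difference of 1718 bp was larger than that of INO, and the libraries did not overlap. KNU, a zinc-finger repressor that ends floral stem cell activity, was covered over 1617 and 1719 bp in val1 val2 and 1980 and 2317 bp in SWN-GFP. SPT, a basic helix-loop-helix gene of carpel fusion, was lost, with folds of 2.58 and 2.90 in the SWN-GFP lists. SUP, which limits INO expression in the ovule, was covered over 2149 and 2428 bp in val1 val2 and 1379 and 1557 bp in SWN-GFP. It is named here beside the genes fixed for naming because of that role, after its values had been seen. The same holds for KAN2, KAN4, REV, ATHB8 and the co-repressor genes.

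**Figure D4:**
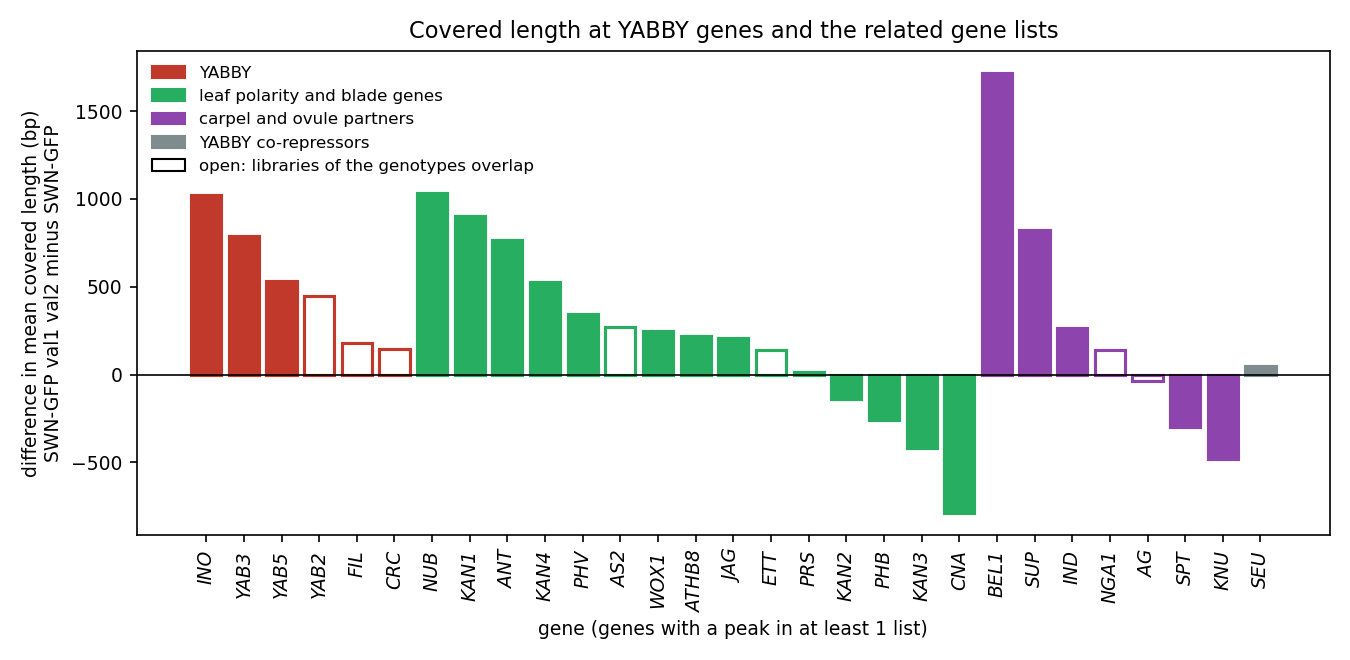
Difference in mean covered length of the window, in bp, val1 val2 minus SWN-GFP, for the YABBY genes and the genes of 3 related lists that had a peak in at least 1 list. Filled bars mark genes whose libraries do not overlap between genotypes; differences run from -790.5 bp at CNA to 1718 bp at BEL1.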

How the data were processed

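Peaks of 4 immunoprecipitated libraries were used, 2 per genotype, grouped by sample title. Bowtie2, SAMtools, Picard, MACS2 and build TAIR10 are named, per the submitters' processing notes; their versions, settings and controls, not given in the sources used here, are unknown. The deposited lists have no header and were read in MACS2 column order. The deposited pileup is a signal (whole fragments at the summit), the authors' fold is a ratio to local background, and the deposited −log10 p and −log10 q are the caller's; the lowest −log10 q was 1.31 to 1.33. Percentiles and ranks of fold were taken within each list. Folds and pileups are also set side by side between genotypes, without a test and without scaling for depth.

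Gene spans came from a RefSeq table of assembly TAIR10.1, without strand or exons, so upstream and downstream, exons, introns and untranslated regions were not distinguished; none of its coordinates are printed. Of all summits, 67.5% to 69.9% per list lay in protein-coding spans, against 56.5% to 59.5% after shifts of 5000 bp either way. Covered length is the number of bp under peaks. Values were compared over libraries with exact permutation tests; run over all 27444 genes with Benjamini-Hochberg adjustment, every YABBY gene had an adjusted p of 1. Labels do not say that replicates were separate cultures, so their spread may be technical. Scripts ran in Python 3.11.15 with numpy 2.4.6 and pandas 2.3.3 and were tested on simulated lists.

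The members, lists and rules were chosen with earlier results of these data known. Named were all members, genes whose span shares a peak with a member, and the 2 genes nearest each member by covered length. Of 3 related lists (19, 6 and 8 genes), lost or gained genes were named. So were the 3 with the largest non-overlapping difference in each direction. Further names are marked. Alternatives were another window, overlap, fold, list length or scaling, each library left out, and a replicate block.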

Additional observations from a re-analysis of the deposited data

How the results depend on the processing

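The summed difference in covered length kept its direction under every alternative run: 1375.5 bp with the gene span alone, 4413 bp with 2000 bp on either side, 4329 bp with a fold of at least 4, 2454 and 5259 bp with the strongest 8000 and 2000 peaks, 1745 bp after scaling to equal total covered length, and 2841.5 to 3381.5 bp with a library left out. All 6 members stayed bound in all lists except INO, which counted as gained (1 gained, 5 kept) with the strongest 2000 peaks and as mixed with a fold of at least 4. The gain rests on a narrow miss, as the INO peak ranked 2015 in SWN-GFP replicate 2. The differences of INO, YAB2, YAB3 and YAB5 stayed positive under every alternative run. Their sizes moved: with a library left out YAB2 ranged from 175 to 723 bp, YAB5 from 339.5 to 722.5 bp, YAB3 from 581.5 to 990.5 bp and INO from 933 to 1112 bp. At FIL the difference was -91.7 bp after scaling, -66 bp with the strongest 8000 peaks, 0 bp with the span alone and -36 to 396 bp with a library left out. At CRC it was -31.4 bp after scaling and -56.5 to 342.5 bp with a library left out. The cause was not tested.

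Labels share replicate numbers, but nothing says that these pair the samples: deviations of same-numbered libraries correlated at 0.01 across genes. With the replicate block the summed difference was 3111.5 bp with an exact permutation p of 0.5, the smallest possible. Unknown depth limits what an absent or weak peak can show.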
